A study of Mus musculus with 18 samples.

Results

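The dependence of the arginine starvation response on GCN2 was taken, in mouse embryonic stem cells of the E14 line, as the log2 change with arginine starvation in cells lacking GCN2 (Gcn) minus the change in wild-type cells (Wt). A negative value of this interaction is a change that was lower without GCN2. It rests on 12 of the 18 libraries of the series, 3 in each of 4 groups named Wt_Unstarved, Wt_Arg, Gcn_Unstarved and Gcn_Arg. Wt cells carried the wild-type genotype and Gcn cells the genotype Eif2ak4-/- in the same E14 line. Wt_Arg and Gcn_Arg cells spent 3 h in SILAC medium lacking arginine, with lysine, glucose, GlutaMAX, LIF and 5% dialyzed serum, and the unstarved groups spent the 3 h in that medium with every amino acid. The sources used here do not state how the knock-out was made, which stretch of the gene it removes or how many clones were used, and genotype and culture history cannot be told apart. Whether the 3 libraries of a group are independent cultures is not stated either, so each p-value covers the variation among these libraries alone, and that variation may be technical.

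GCN2, encoded by Eif2ak4, is a protein kinase that is switched on when tRNAs lack their amino acids, and it phosphorylates the translation initiation factor eIF2α. Phosphorylated eIF2α slows most protein synthesis while the transcription factor ATF4 is translated more, and ATF4 with its C/EBP-family partners drives amino acid transporters, biosynthetic enzymes, tRNA synthetases and stress regulators. This programme is the integrated stress response (ISR), which other eIF2α kinases can also start, and amino acid shortage acts in parallel on the mTORC1 growth kinase.

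Eif2ak4 (chromosome 2, 118388618 to 118475234, GRCm38) was read first as a check of the labels. It stood at 32.2, 33.4 and 29.7 CPM (counts scaled to the library total times its trimmed-mean factor) in Wt_Unstarved, at 28.7, 29.2 and 28.9 in Wt_Arg, at 6.23, 4.84 and 4.62 in Gcn_Unstarved and at 6.37, 4.35 and 5.7 in Gcn_Arg. The 6 Wt libraries lay above the 6 Gcn libraries with no overlap, and transcript from the locus was still counted in Gcn. Unstarved Gcn cells were 6.1-fold lower than Wt (log2 -2.61 ± 0.13, adjusted p = 1.73e-12; ± after a log2 value is an SE throughout, n = 3 libraries per group), and the starvation change of Eif2ak4 did not differ between genotypes beyond its error (0.20 ± 0.18, adjusted p = 0.65). Stem cell markers were present in each of the 12 libraries, with Pou5f1 at 1741 to 2823 CPM and Nanog at 277 to 597. Nanog averaged 310 CPM in Wt_Unstarved and 285 in Wt_Arg, against 559 in Gcn_Unstarved and 562 in Gcn_Arg. Summed naive pluripotency markers ran from 6770 to 7600 CPM in Wt and from 8050 to 8950 in Gcn. Summed primed and lineage markers ran from 682 to 789 in Wt and from 391 to 438 in Gcn. The part of this difference in the results was not tested.

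Library totals ran from 14.8 M counts (Gcn_Arg 3) to 32.7 M (Wt_Arg 2). Genotype parted the libraries on the first principal component (41% of the variance) and starvation on the next (26.9%). Gcn_Unstarved 1 and Gcn_Arg 1 stood apart from the other 4 Gcn libraries on the one after (-29.6 and -21.8 against 2.1 to 24.7). Gm42418, which overlaps ribosomal RNA sequence, took 0.224% to 1.39% of counts in Wt and 0.813% to 3.97% in Gcn. Summed fibroblast markers, with Fap at 0 counts in every library, ran from 19.1 to 26.3 CPM in Wt and from 9.72 to 13.9 in Gcn, and summed primitive endoderm markers from 21.1 to 41 in Wt and from 14.5 to 27.5 in Gcn. No member of either marker list was called in the interaction (0 of 6 and 0 of 8 tested). Scaling factors moved with genotype and starvation, from 0.953 to 0.963 in Gcn_Unstarved and from 1.04 to 1.05 in Gcn_Arg, against 0.978 to 1.01 in Wt. The part of these differences in the results was not tested, except where a result without the libraries numbered 1 or with another scaling is given.

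Without a replicate block and with trimmed-mean scaling, the arginine response differed between the genotypes in a small set of genes, mostly lower in Gcn. Of 16924 genes tested, 390 (2.3%) were called at an adjusted p under 0.05 in edgeR's quasi-likelihood test of the interaction, 285 of them lower (1.68%) and 105 higher (0.62%) in Gcn. A difference of at least 1 on the log2 scale was reached by 61 lower (0.36%) and 9 higher genes (0.0532%). The direction depended on scaling: 73.1% of called genes were lower with trimmed-mean scaling, and 35.2% with library size alone (162 lower and 298 higher). Without the 3 Gcn libraries numbered 1, 292 were lower and 184 higher. A replicate block within genotype raised the calls to 2505 of the 16924 genes, 1505 lower and 1000 higher (60.1% lower). Of the 390 genes, 389 were among them. The size of the set thus depended on whether same-numbered libraries were treated as pairs. Leaving out 1 library lowered the 285 to between 142 and 187 without Wt_Unstarved 1, Wt_Unstarved 3, Wt_Arg 2, Wt_Arg 3, Gcn_Unstarved 1, Gcn_Unstarved 2 or Gcn_Arg 2. The 105 became 38 to 67 without any 1 of these 7 or without Wt_Arg 1, and 160 without Gcn_Arg 1. Across 16906 genes the interaction and the GC content of the gene had a Spearman rho of 0.313, where the Wt change had -0.3 and the Gcn change -0.047. These correlations run over genes of the same libraries, which are not independent replicates.

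Most of the starvation response was present without GCN2. Arginine starvation changed 5488 genes in Wt (32.4%, with 17% up and 15.4% down) and 5743 in Gcn (33.9%, with 16.5% up and 17.5% down). The 569 genes (3.36%) that rose by at least 1 on the log2 scale in Wt had a median change of 1.34 there and of 1.03 in Gcn, where 386 of them (67.8%) also rose and 13 fell. Of these 569, 58 were called lower in the interaction, against 1.68% of all genes. The interaction contains the change by which genes were chosen, so choosing in either genotype favours such calls. The 207 genes (1.22%) that fell by at least 1 in Wt had medians of -1.21 in Wt and -0.93 in Gcn, where 153 (73.9%) fell too and 0 rose. Chosen in Gcn instead, 589 strong risers (3.48%) had medians of 1.33 in Gcn and 1.00 in Wt, and 403 of them (68.4%) rose in Wt too. The 239 strong fallers in Gcn (1.41%) had medians of -1.26 in Gcn and -0.76 in Wt, 14 that rose in Wt and 36 called lower in the interaction. The 2 changes share no library, and their Pearson r across all 16924 genes was 0.653, as a description over genes.

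**Figure D1:**
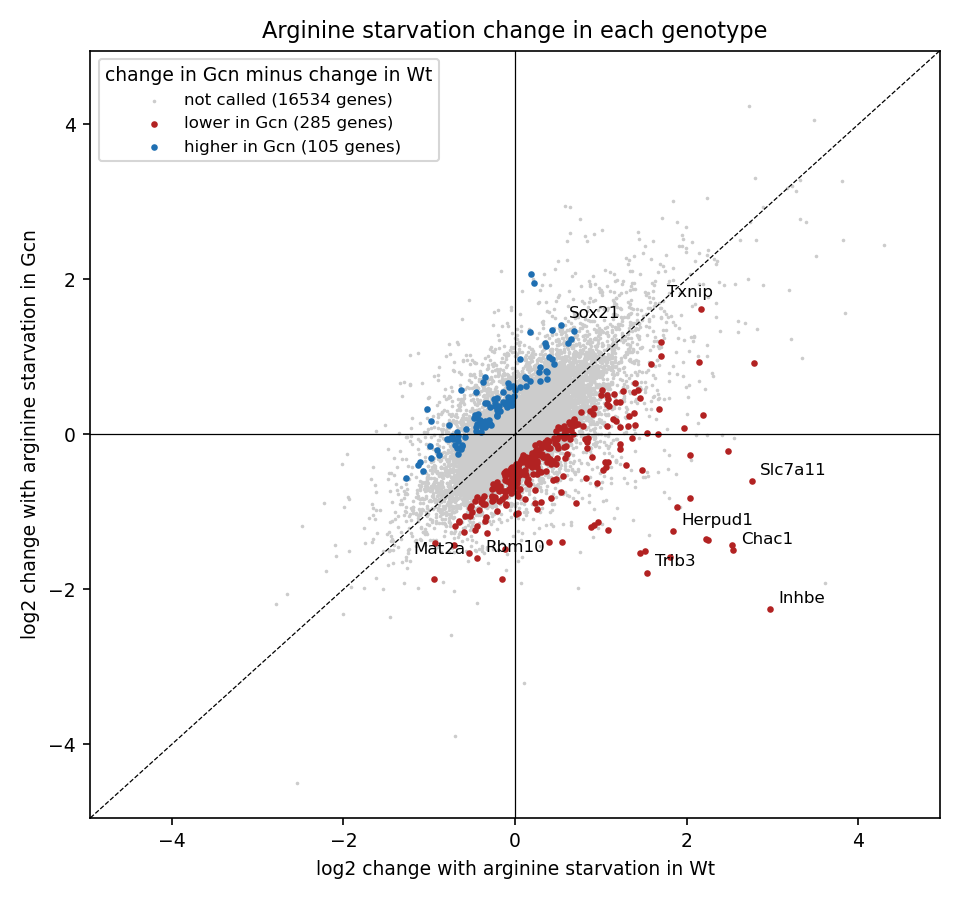
Each point is 1 of 16924 genes, with its log2 change with arginine starvation in Wt (horizontal) and in Gcn (vertical); red and blue points are the 285 genes whose change was called lower and the 105 called higher in Gcn, and the dashed line marks equal changes. Most genes lie along the dashed line, and Inhbe, Chac1, Trib3 and Herpud1 lie far below it, having risen in Wt and fallen in Gcn.

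Several responders had no called interaction. Txnip, an arrestin-like inhibitor of glucose uptake, stood at 121, 130 and 138 CPM in Wt_Unstarved and 392, 414 and 435 in Wt_Arg, and at 174, 146 and 136 in Gcn_Unstarved and 538, 480 and 457 in Gcn_Arg. It rose in each genotype with no overlap between starved and unstarved libraries (1.67 ± 0.10 in Wt, 1.70 ± 0.10 in Gcn), and the interaction was 0.02 ± 0.14 (adjusted p = 0.964). Mat2a, the enzyme that makes S-adenosylmethionine, fell by 1.28 in Wt and by 1.62 in Gcn (interaction -0.34, adjusted p = 0.128). The clock repressor gene Bhlhe40 rose by 1.82 and 1.53, Rragc, a Rag GTPase that recruits mTORC1, by 0.72 and 0.64, and Foxo3, a growth-restraining transcription factor, by 0.48 and 0.47, none with a called interaction. A p that misses the threshold does not show that such changes are equal, and the median SE of an interaction was 0.19.

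The 390 genes were sorted by what they did in each genotype. This sorting uses the same libraries as the interaction and describes it. The 285 lower genes comprised 99 that fell in Gcn and were not called in Wt, 82 that rose in Wt and were not called in Gcn, 47 that rose in Wt and fell in Gcn, 35 that fell further in Gcn and 22 that rose less. The 47 genes of opposite response had median changes of 0.48 in Wt and -0.47 in Gcn. The 105 higher genes comprised 42 that fell in Wt and were not called in Gcn, 36 that rose in Gcn and were not called in Wt, 15 that rose more in Gcn, 7 that fell in Wt and rose in Gcn, and 5 that fell less.

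Transcription factors of the ISR were among the genes most often called. Of 13 tested, 8 were lower and 1 higher in the interaction (median -0.83, against -0.0039 over all genes), and 8 rose in Wt where 7 fell in Gcn. Over all genes 1.68% were lower and 0.62% higher, 17% rose in Wt and 17.5% fell in Gcn. These are the shares to set beside the counts of this and the following lists. Atf4, the central factor, stood at 529, 377 and 481 CPM in Wt_Unstarved, 608, 626 and 643 in Wt_Arg, 435, 402 and 385 in Gcn_Unstarved, and 270, 277 and 268 in Gcn_Arg. The starved Wt libraries were the highest and the starved Gcn libraries the lowest of the 12, with no overlap with the other groups. Atf4 rose by 0.44 ± 0.09 in Wt and fell by 0.58 ± 0.09 in Gcn, an interaction of -1.02 ± 0.13 (adjusted p = 4.99e-05). The unstarved genotypes did not differ in Atf4 beyond the error (-0.18 ± 0.09, adjusted p = 0.132), and the starved ones differed 2.3-fold.

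Ddit3, which encodes the pro-apoptotic factor CHOP, stood at 11.1, 5.78 and 8.57 CPM in Wt_Unstarved and 32.5, 36 and 37.3 in Wt_Arg. In Gcn it stood at 15, 16.5 and 15.5 CPM unstarved and 6.97, 9.85 and 9.92 starved. Gcn cells thus began higher than Wt cells and ended within the unstarved Wt range, and the interaction was -2.87 ± 0.24 (adjusted p = 2.8e-07). Atf3, an ATF4 target and repressor, was at 32.7 to 33.7 CPM in Wt_Arg and at 2.44 to 3.31 in all 6 Gcn libraries, with an interaction of -1.94 ± 0.29 (adjusted p = 0.000551). Jdp2, a partner of Jun-family proteins, had an interaction of -1.94, the stress-induced chromatin protein gene Nupr1 of -1.89, the C/EBP gene Cebpb of -1.59, Nfe2l1, a regulator of proteasome genes, of -0.83 and Cebpg, which encodes a heterodimer partner of ATF4, of -0.59. Cebpd went the other way: it fell in Wt (-0.37) and rose in Gcn (0.68), an interaction of 1.05 ± 0.17 (adjusted p = 0.000952). Its unstarved level was 2.06-fold lower in Gcn than in Wt, and the starved genotypes did not differ beyond the error (0.01 ± 0.12). Cebpg was instead higher in unstarved Gcn than in unstarved Wt cells (0.39 ± 0.07), and the starved genotypes differed less (-0.20 ± 0.07). Atf5, Nfil3, Cebpa and Batf2 were not called, and Cebpa fell in both genotypes (-1.32 in Wt and -0.90 in Gcn).

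Intracellular effectors of the ISR were lower in Gcn or not called. Of 23 tested, 13 were lower and none higher (median -0.49). Chac1, an enzyme that degrades glutathione, stood at 37.9, 17.7 and 28.2 CPM in Wt_Unstarved, 159, 161 and 169 in Wt_Arg, 28.6, 22.6 and 18.7 in Gcn_Unstarved, and 7.57, 8.69 and 8.55 in Gcn_Arg. The unstarved libraries of the 2 genotypes overlapped, while the starved ones lay above and below every unstarved library. It rose 5.82-fold in Wt and fell 2.82-fold in Gcn, an interaction of -4.03 ± 0.32 (adjusted p = 2.46e-06).

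Trib3, a pseudokinase that feeds back on ATF4 activity, stood at 81.2, 47.6 and 67.4 CPM in Wt_Unstarved, 173, 195 and 202 in Wt_Arg, 68.1, 58.4 and 55.9 in Gcn_Unstarved, and 15.5, 18.2 and 19.4 in Gcn_Arg. Its unstarved libraries overlapped between genotypes and its starved libraries differed 10.8-fold, with an interaction of -3.32 ± 0.22 (adjusted p = 5.88e-08). Herpud1, a component of ER-associated degradation, stood at 35, 22.1 and 31.1 CPM in Wt_Unstarved, 102, 103 and 110 in Wt_Arg, 47.8, 42.9 and 38.1 in Gcn_Unstarved, and 15.6, 19.1 and 19.7 in Gcn_Arg. All 4 groups were separate, and the interaction was -3.08 ± 0.18 (adjusted p = 1.34e-09). Vldlr, a lipoprotein receptor, followed with -2.69, the mitochondrial alanine aminotransferase Gpt2 with -2.10 and the mitochondrial folate enzyme Mthfd2 with -1.01.

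Some effectors fell in Gcn with no called rise in Wt. Sesn2, a leucine sensor that restrains mTORC1, stood at 374 to 406 CPM in Wt_Unstarved, 356 to 405 in Wt_Arg and 342 to 409 in Gcn_Unstarved, ranges that overlapped, and at 227 to 257 in Gcn_Arg, below them all (interaction -0.66 ± 0.13, adjusted p = 0.00602). Eif4ebp1, a repressor of cap-dependent translation, was lower by -0.49. Ddit4, an mTORC1 inhibitor, had an interaction of -1.24 (adjusted p = 0.0155), a call lost without Wt_Unstarved 3, Wt_Arg 2 or Gcn_Unstarved 2 (adjusted p up to 0.0528). Cth and Pck2, by contrast, rose in Wt and were not called in Gcn. The calls of Cth, of cysteine synthesis (-0.56), Pck2, a mitochondrial enzyme of gluconeogenesis (-0.95), and Xpot, a tRNA exporter (-0.45), were each lost with library size alone as scaling, and without Wt_Unstarved 3 or Wt_Arg 3. That of Cth was also lost without Wt_Unstarved 2, Wt_Arg 2, Gcn_Unstarved 2, Gcn_Unstarved 3 or Gcn_Arg 1, that of Pck2 without Wt_Unstarved 2, Wt_Arg 1, Wt_Arg 2, Gcn_Unstarved 1, Gcn_Unstarved 3, Gcn_Arg 2 or Gcn_Arg 3, and that of Xpot without Wt_Arg 1, Gcn_Unstarved 1, Gcn_Unstarved 2 or Gcn_Arg 2. Among the 10 members not called, Cdkn1b rose in both genotypes (0.66 in Wt and 0.79 in Gcn), as did Gadd45a (0.67 and 0.54).

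**Figure D2:**
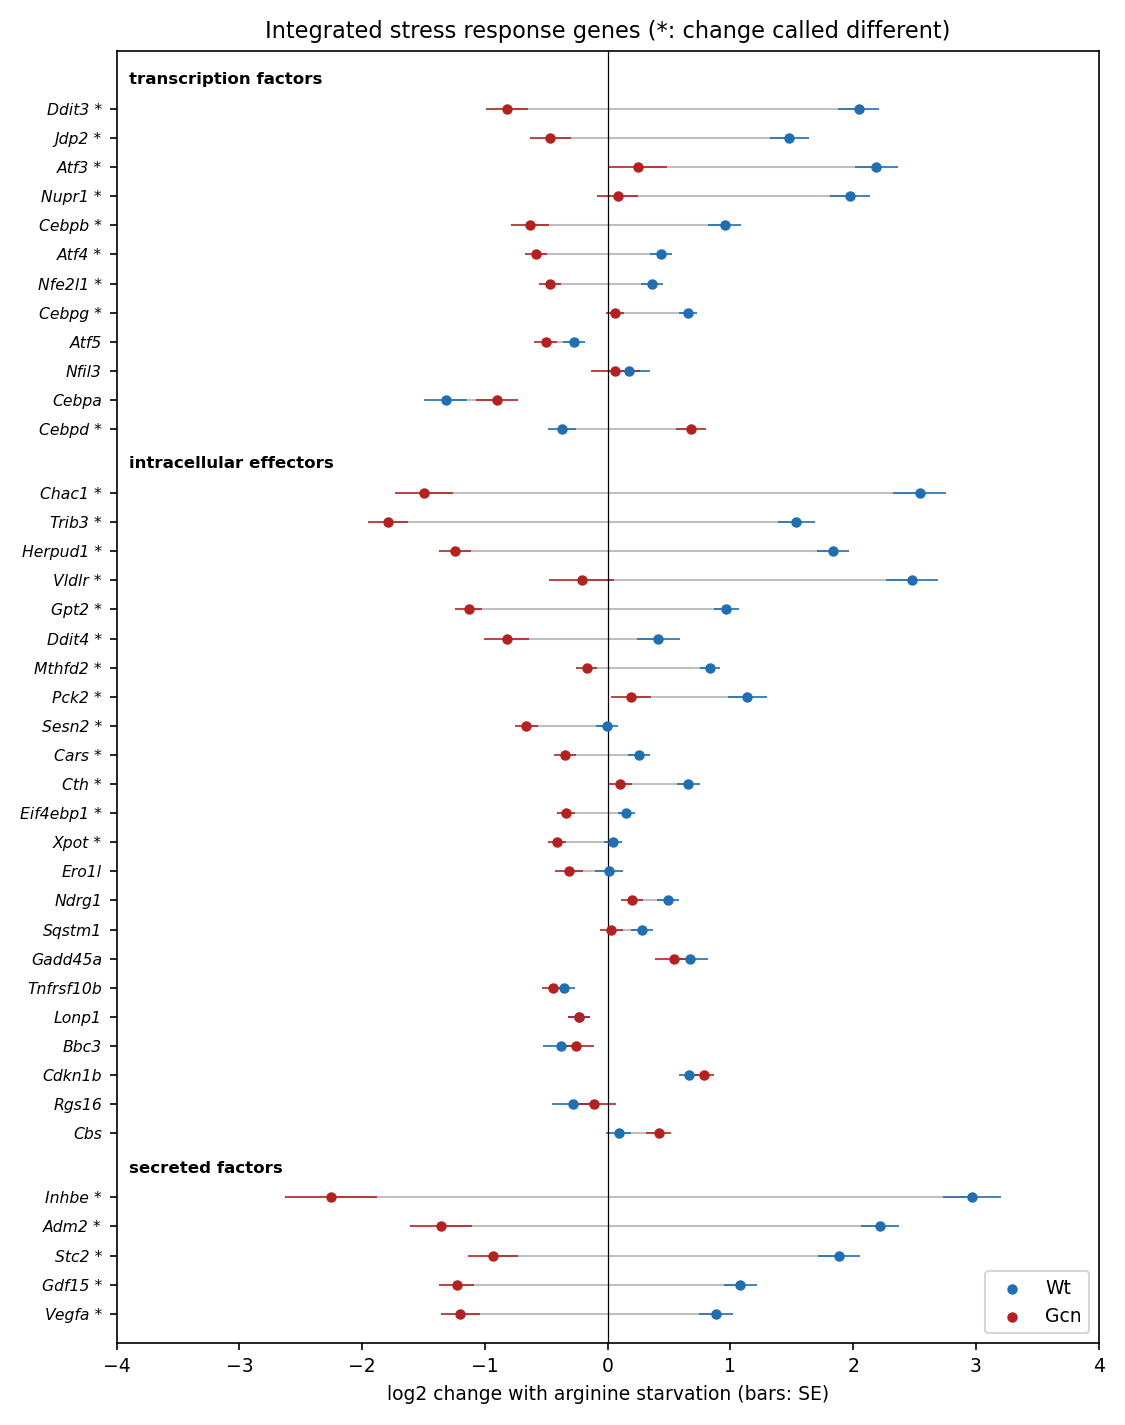
The log2 change with arginine starvation in Wt (blue) and Gcn (red), with SE bars, for tested ISR genes in 3 lists; a star marks an interaction called at an adjusted p under 0.05, and Fgf21 and Batf2, with few counts, are left out. In the list of secreted factors all 5 genes shown lie right of 0 in Wt and left of 0 in Gcn, and Cebpd is the only starred gene whose Gcn value lies right of its Wt value.

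Secreted stress factors rose in Wt and fell in Gcn. Of 6 tested, 5 were lower (median -2.57), and all 5 rose in Wt and fell in Gcn. Inhbe, an activin subunit, stood at 1.74, 1.03 and 1.07 CPM in Wt_Unstarved, 8.02, 10.3 and 12.6 in Wt_Arg, 2.05, 1.89 and 1.76 in Gcn_Unstarved, and 0.257, 0.399 and 0.583 in Gcn_Arg (6 to 10 counts). The starved groups lay above and below all unstarved libraries, and its interaction, -5.22 ± 0.43 (adjusted p = 1.18e-07), was the most negative in the ISR lists. Gdf15, a circulating signal of cell stress that acts on appetite, stood at 11.3, 10.4 and 13.4 CPM in Wt_Unstarved, 22, 24.2 and 27.8 in Wt_Arg, 18, 20.6 and 16.2 in Gcn_Unstarved, and 7.7, 8.13 and 7.45 in Gcn_Arg. Unstarved Gcn cells lay above unstarved Wt cells and starved ones below them, with an interaction of -2.31 ± 0.19 (adjusted p = 8.11e-08). Adm2, a calcitonin-family peptide (-3.58), Stc2, a glycoprotein hormone (-2.82), and Vegfa, an angiogenic factor (-2.08), completed the 5. Fgf21, a fasting hormone, had 18 to 35 counts in Wt_Arg, 2 to 11 in Wt_Unstarved and 0 or 1 in each of the 6 Gcn libraries, and its interaction was not called.

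**Figure D3:**
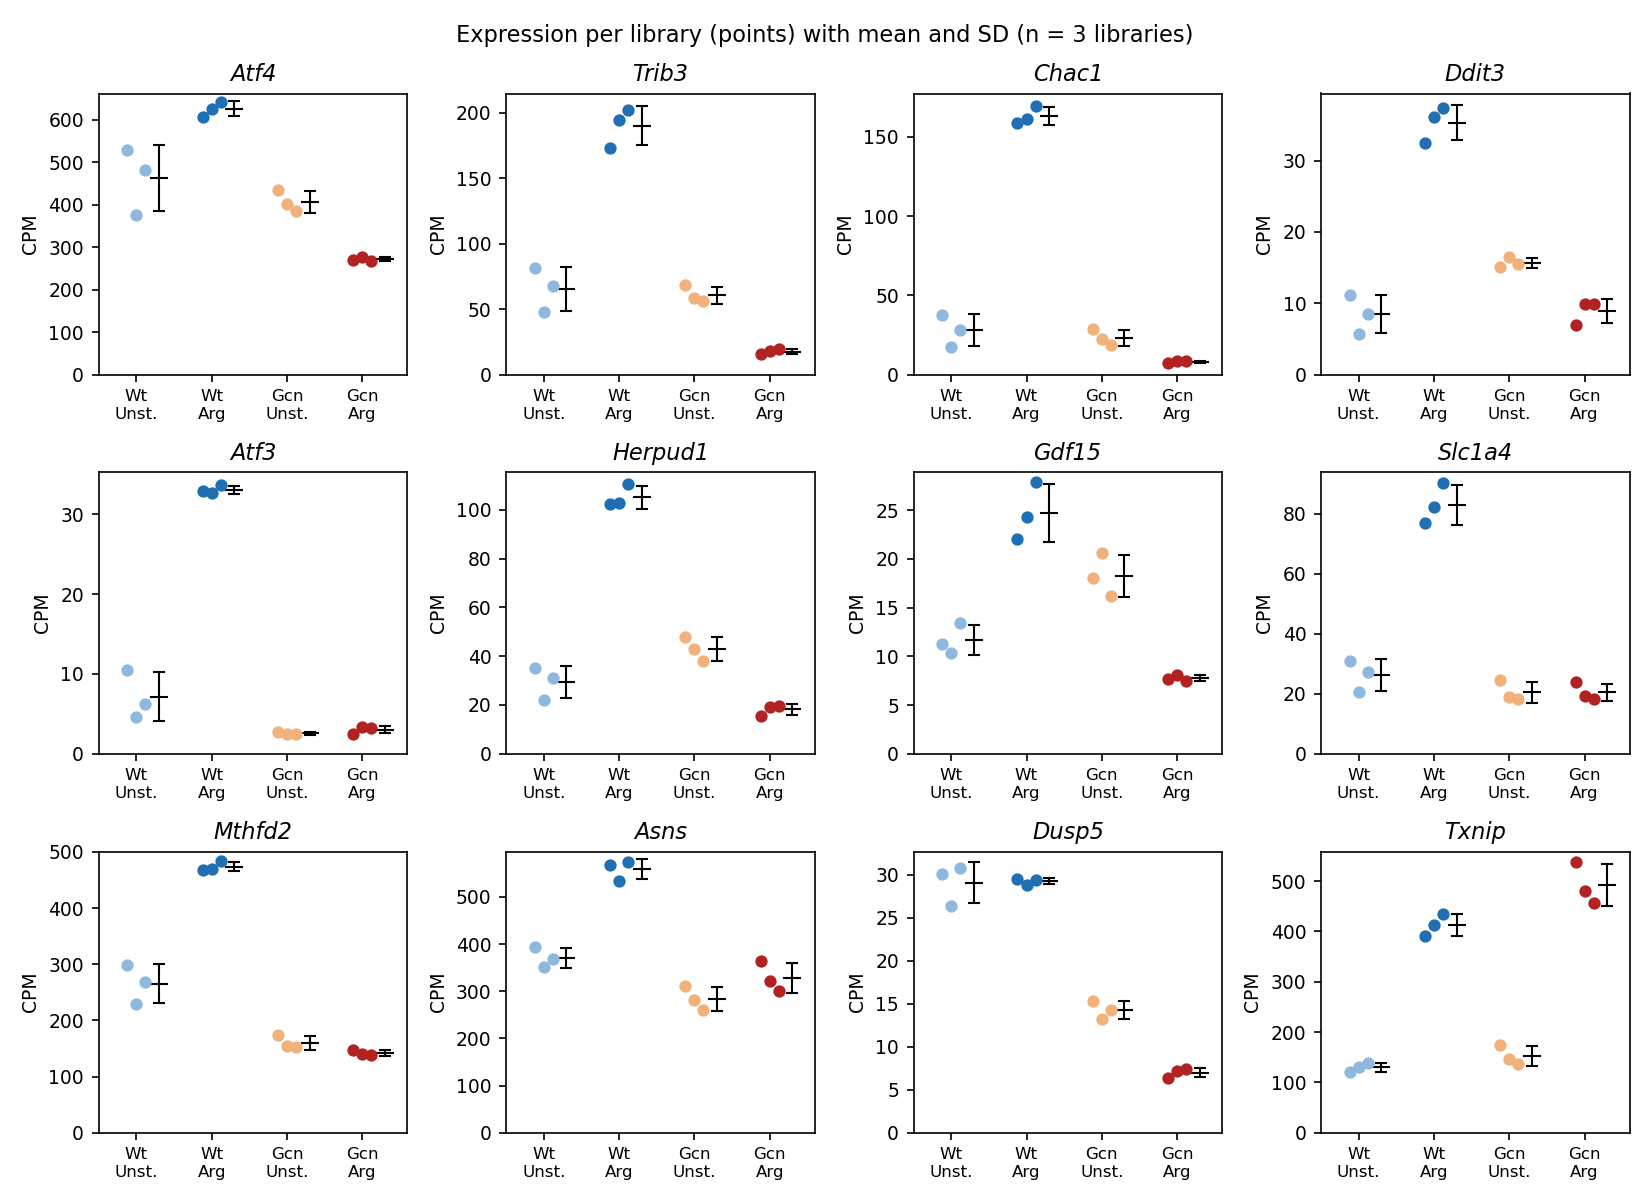
CPM of 12 genes in the 12 libraries, 3 per group (points), with the mean and SD of each group beside them. Atf4, Trib3, Chac1, Ddit3, Herpud1 and Gdf15 are highest in Wt_Arg and lowest, or within the unstarved Wt range, in Gcn_Arg; Txnip is high in both starved groups, and Dusp5 falls in Gcn alone.

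ATF4 with a C/EBP partner binds a composite element with the core TGATGNAA, so promoters were read for these letters on either strand in the 250 bases before the start site (RefSeq, GRCm38.p6). Of the 16919 tested symbols, 11508 matched the promoter table and 276 of those (2.4%) held the core. Among the 285 genes lower in the interaction, 220 matched and 24 (10.9%) held it; among the 105 higher genes, 80 matched and 0 held it. By class the share was 14.9% of genes that rose in Wt and were not called in Gcn (10 of 67), 12.5% of those that rose in Wt and fell in Gcn (5 of 40), 9.86% of those that fell in Gcn and were not called in Wt (7 of 71), and 0 of 26 genes that fell further in Gcn. A match is a description of the letters and not a measured binding site, and no match says only that these letters are absent from this window. Of the named genes called in the interaction 12 held the core, and the 8 whose stretch overlapped no annotated exon are shown because they carry the element beside widely different interactions. Each stretch runs 5′ to 3′ on the gene's strand, with the core in capitals (TTGCATCA and TTACATCA are the core read from the opposite strand).

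Chac1: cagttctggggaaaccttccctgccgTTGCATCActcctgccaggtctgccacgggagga
Slc7a11: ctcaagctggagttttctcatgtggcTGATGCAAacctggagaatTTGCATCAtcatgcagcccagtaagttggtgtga
Herpud1: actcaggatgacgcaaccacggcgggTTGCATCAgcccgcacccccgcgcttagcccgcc
Jdp2: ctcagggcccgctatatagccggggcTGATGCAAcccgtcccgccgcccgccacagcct
Atf3: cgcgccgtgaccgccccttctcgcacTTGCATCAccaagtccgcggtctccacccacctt
Hrk: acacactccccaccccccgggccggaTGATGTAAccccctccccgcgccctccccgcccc
Arl14ep: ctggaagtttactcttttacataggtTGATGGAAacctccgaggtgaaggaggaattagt
Pck2: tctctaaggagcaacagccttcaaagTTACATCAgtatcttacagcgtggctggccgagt

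The Chac1 stretch lies at chr2:119351023-119351082 on the plus strand, with its core beginning 193 bases before the start site, and Herpud1 at chr8:94386291-94386350 on the plus strand, 112 bases before it. The Slc7a11 stretch, at chr3:50443627-50443705 on the minus strand, held 2 cores on opposite strands. Atf3 lies at chr1:191183410-191183469 (minus), Jdp2 at chr12:85599357-85599415 (plus), Hrk at chr5:118169624-118169683 (plus), Arl14ep at chr2:106973127-106973186 (minus) and Pck2 at chr14:55540137-55540196 (plus). Trib3, Ddit3, Adm2 and Slc6a9, with interactions of -3.32, -2.87, -3.58 and -2.99, had no core in this window.

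Amino acid transporters rose with starvation mostly in Wt. Of 19 tested, 10 were lower and none higher (median -0.50), where 14 rose in Wt and 4 in Gcn. Of all genes 1.68% were lower, 17% rose in Wt and 16.5% rose in Gcn, so the 4 lie near the share of all genes. Slc1a4, a carrier of small neutral amino acids, stood at 31, 20.5 and 27.2 CPM in Wt_Unstarved and 76.8, 82.3 and 90.1 in Wt_Arg, and at 24.6, 18.8 and 18.2 in Gcn_Unstarved and 23.8, 19.1 and 18.4 in Gcn_Arg. The Wt_Arg libraries stood alone, and starved and unstarved Gcn libraries overlapped throughout (interaction -1.66 ± 0.23, adjusted p = 0.000492). Slc7a1, the cationic amino acid carrier that takes up arginine itself, stood at 158, 122 and 144 CPM in Wt_Unstarved, 246, 265 and 282 in Wt_Arg, 140, 125 and 107 in Gcn_Unstarved and 119, 90.4 and 93.6 in Gcn_Arg (interaction -1.19 ± 0.17, adjusted p = 0.00039). It rose in Wt and was not called in Gcn (-0.29, adjusted p = 0.071).

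Slc6a9, a glycine carrier, rose by 1.45 in Wt and fell by 1.54 in Gcn. Slc7a11, the cystine carrier that feeds glutathione synthesis, had 166 to 204 counts in Wt_Arg and 7 to 40 in the other 9 libraries (interaction -3.36 ± 0.47). Slc38a4, a carrier of neutral and cationic amino acids, fell in Gcn (-0.98) and was not called in Wt (-0.21), with an interaction of -0.78. Slc3a2, the shared heavy chain of several carriers, rose in both genotypes (0.70 and 0.30) and missed the call (-0.39, adjusted p = 0.0712), as did the arginine carrier Slc7a3 (-0.33, adjusted p = 0.0871).

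Among tRNA synthetases, which attach amino acids to their tRNAs, 10 of 20 were lower and none higher (median -0.44). In Wt 13 rose and 2 fell, against 17% and 15.4% of all genes. In Gcn none rose and 7 fell, against 16.5% and 17.5%. Nars, for asparagine, stood at 623, 553 and 562 CPM in Wt_Unstarved, 761, 763 and 787 in Wt_Arg, 480, 448 and 446 in Gcn_Unstarved and 421, 405 and 384 in Gcn_Arg, 4 groups without overlap (interaction -0.59 ± 0.09, adjusted p = 0.000811). Tars, for threonine, was not called in Wt (0.12) and fell in Gcn (-0.53), an interaction of -0.65 ± 0.09 (adjusted p = 0.000126). Eprs (-0.79), Iars (-0.70) and Cars (-0.60) rose in Wt and fell in Gcn, and Lars, for leucine, rose in Wt (0.67) and stood at 0.00 in Gcn. Cars is also counted among the effectors. Kars (0.00) and Sars (-0.40, adjusted p = 0.0997) were not called. Without Wt_Arg 3, 6 of the 20 were called.

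Amino acid synthesis was less uniform, with 5 of 21 lower (median -0.30). Of these 5, Mthfd2 and Gpt2 are also counted among the effectors. Mthfd2 stood at 298, 230 and 269 CPM in Wt_Unstarved, 468, 470 and 483 in Wt_Arg, 174, 154 and 152 in Gcn_Unstarved and 148, 140 and 138 in Gcn_Arg. It rose in Wt and was not called in Gcn (-0.17), where all 6 libraries lay below the Wt libraries, already before starvation (-0.73 ± 0.08). Psat1, of serine synthesis, fell in Gcn (-0.49) and was not called in Wt (-0.05), with an interaction of -0.44. Asns, asparagine synthetase and a classic ATF4 target, stood at 393, 352 and 367 CPM in Wt_Unstarved, 568, 534 and 574 in Wt_Arg, 311, 281 and 259 in Gcn_Unstarved and 363, 322 and 300 in Gcn_Arg. It rose in Wt (0.59 ± 0.09) with no overlap and not by the test in Gcn (0.21 ± 0.09, adjusted p = 0.0748), where the libraries overlapped, yet its interaction missed the call (-0.38 ± 0.13, adjusted p = 0.118). Asns was called under 4 of the 22 alternative analyses, among them the one that kept genes of few counts. In this list 15 of 21 genes were already lower in unstarved Gcn cells than in Wt, where 32.8% of all genes differed (16.2% lower and 16.6% higher). The count of 5 fell to 3 without Wt_Unstarved 2, Wt_Arg 2, Wt_Arg 3 or Gcn_Unstarved 2, and the call of Shmt2 (-0.50) was lost without each of these 4 libraries and without Gcn_Unstarved 1, Gcn_Arg 2 or Gcn_Arg 3. Library size alone as scaling also gave a count of 3 and no call of Shmt2.

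Calls in the eIF2α machinery itself depended on the analysis. Of 19 kinases, eIF2 and eIF2B subunits, phosphatase subunits and partners, 2 were lower and none higher (median -0.18). These were Ppp1r15a, the stress-induced phosphatase subunit that reverses eIF2α phosphorylation (-0.55, adjusted p = 0.029), and Eif2a, an alternative initiation factor (-0.48, adjusted p = 0.0264). Both calls were lost without Wt_Unstarved 3, Wt_Arg 2, Wt_Arg 3, Gcn_Unstarved 1, Gcn_Unstarved 2 or Gcn_Arg 2, that of Ppp1r15a also without Wt_Unstarved 2, Wt_Arg 1 or Gcn_Arg 3, and that of Eif2a also without Wt_Unstarved 1. With library size alone as scaling neither was called, and 1 of the 19 was higher. Eif2a was already higher in unstarved Gcn than in unstarved Wt cells (0.28 ± 0.08), and its starved levels were not called different (-0.19 ± 0.08). The other kinases Eif2ak1 (-0.18), Eif2ak2 (0.04) and Eif2ak3 (-0.27) were not called, and Impact, an inhibitor of GCN2, rose in both genotypes (0.70 in Wt and 0.55 in Gcn). Eif5, the GTPase-activating protein of eIF2, belonged to no list and was among the clearest of the genes that fell in Gcn: 584, 559 and 541 CPM unstarved against 320, 275 and 309 starved, where Wt stood at 371 to 442 unstarved and 377 to 395 starved (interaction -0.79 ± 0.12, adjusted p = 0.000387).

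**Figure D4:**
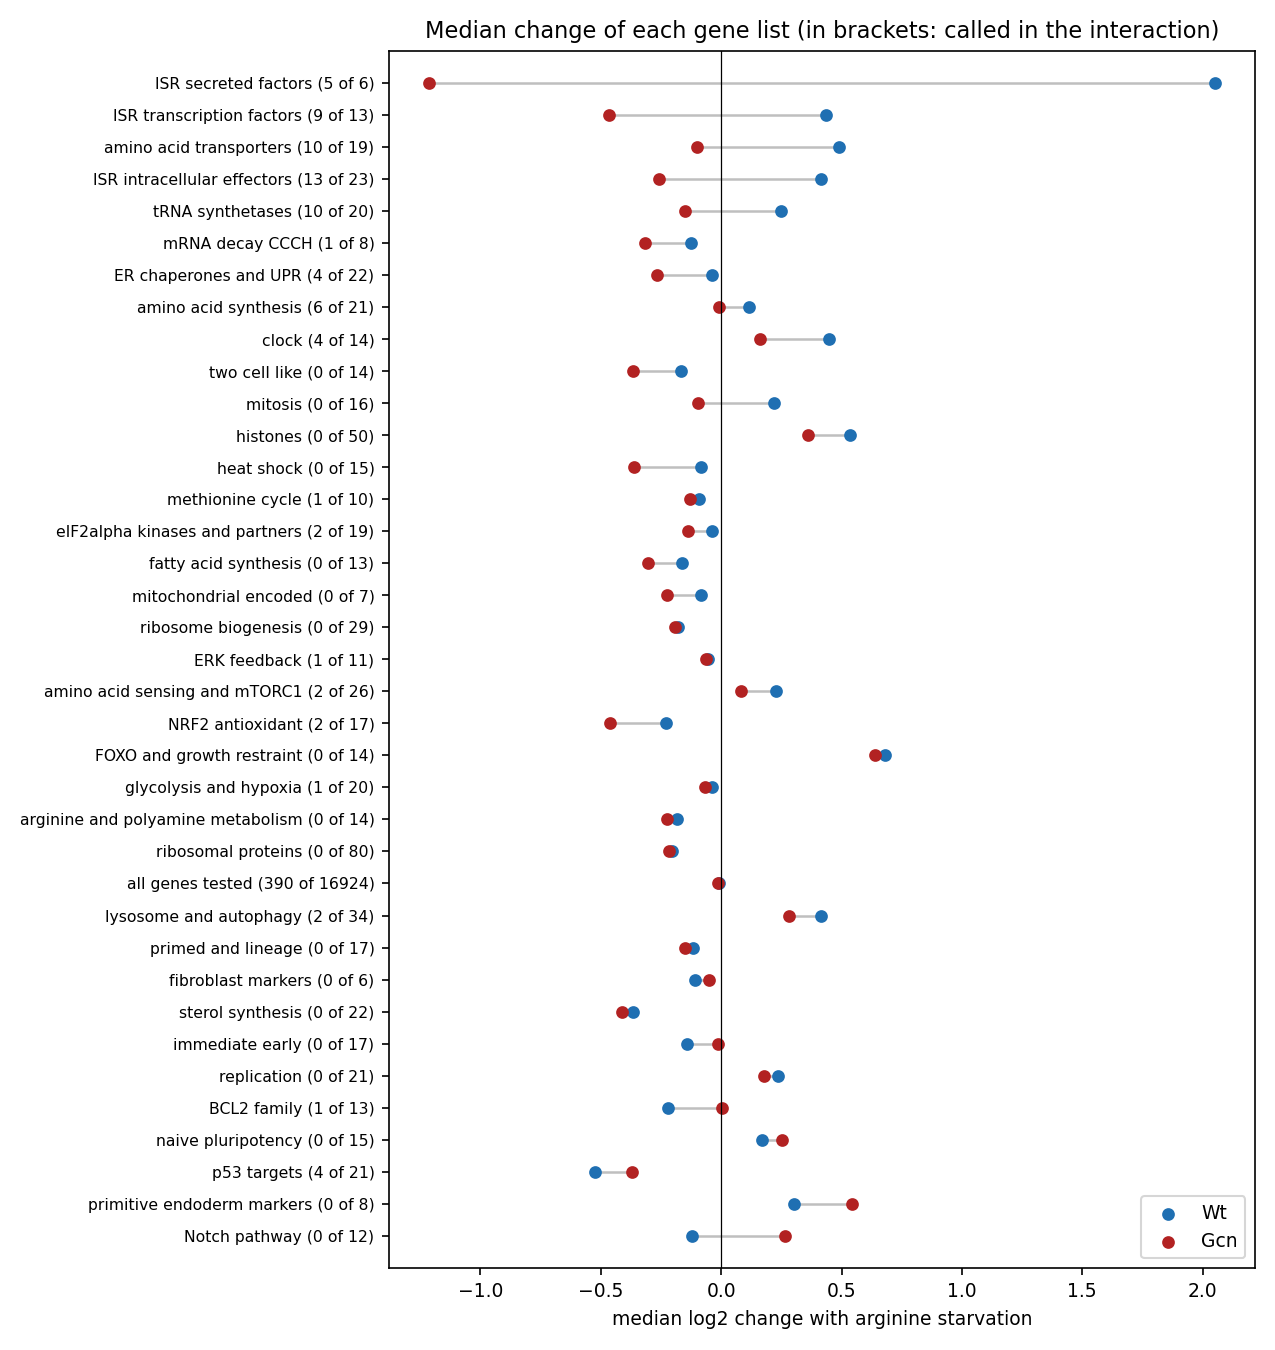
Median log2 change with arginine starvation in Wt (blue) and Gcn (red) of the tested members of 36 gene lists and of all genes, ordered by the median interaction; the number in brackets is the members called in the interaction of those tested. The ISR transcription factors, effectors and secreted factors, transporters and tRNA synthetases stand at the top with Wt medians above 0 and Gcn medians below 0, and most other lists have medians close to each other.

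Genes of neighbouring stress pathways were called in small numbers, but at shares above the 2.3% of all genes. These were 18.2% of ER chaperone and unfolded protein response genes, 7.69% of sensing and mTORC1 genes and 11.8% of NRF2 genes. The shares are not separate from the lists above. Herpud1, Ddit4 and Sesn2 are also counted among the effectors and Slc7a11 among the transporters, and no other sensing and mTORC1 gene was called. Among 22 ER chaperone and unfolded protein response genes 4 were lower: Herpud1, Atf6, an ER stress sensor (-0.73), Pdia4, a protein disulfide isomerase (-0.56), and Canx, the lectin chaperone calnexin (-0.52). Pdia4 stood at 200 to 209 CPM in Wt_Unstarved, 179 to 203 in Wt_Arg, 277 to 286 in Gcn_Unstarved and 177 to 186 in Gcn_Arg. Unstarved Gcn cells were thus the high group, and 18 of the 22 genes were higher in unstarved Gcn than in unstarved Wt cells, against 16.6% of all genes. Canx was among these 18 (0.33 ± 0.08), and its starved levels were not called different (-0.20 ± 0.08). Among 26 genes of amino acid sensing and mTORC1, Ddit4 and Sesn2 were called, and among 17 NRF2 antioxidant genes Slc7a11 and Hmox1, the latter at -0.47 (adjusted p = 0.0462) with the call lost without any of the 12 libraries but Gcn_Unstarved 1. Library size alone as scaling and the fit of the 12 libraries alone also lost the call of Hmox1.

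The clock list had 4 of 14 genes lower. Ciart, a circadian repressor, stood at 16.5, 12.8 and 17 CPM in Wt_Unstarved, 63, 70.4 and 71.4 in Wt_Arg, 16.7, 15 and 13.2 in Gcn_Unstarved and 28.5, 30.5 and 26.1 in Gcn_Arg. It rose in both genotypes, less in Gcn (interaction -1.22 ± 0.17, adjusted p = 0.000128). Nr1d1, encoding REV-ERBα, rose in Wt (0.85) and was not called in Gcn (-0.05). The list's count fell to 2 with library size alone as scaling, and without Wt_Unstarved 1, Wt_Unstarved 3, any Wt_Arg library, Gcn_Unstarved 1 or Gcn_Unstarved 2. Hrk, a BH3-only death gene and the 1 called of 13 BCL2-family genes, rose from 4.04 to 5.54 CPM to 28.5 to 38.1 in Wt and from 7.56 to 8.54 to 12.4 to 17 in Gcn (interaction -1.87 ± 0.22, adjusted p = 2.02e-05).

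Among 21 p53 targets 3 were higher and 1 lower. Btg2, an antiproliferative gene, fell in Wt (-1.13) and less in Gcn (-0.40). Cdkn1a, the cell cycle inhibitor p21, fell in Wt (-0.89) and was not called in Gcn (-0.27), and Ei24, an ER protein of autophagy, likewise (-0.59 and -0.03). Cdkn1a was already 1.75-fold lower in unstarved Gcn than in unstarved Wt cells, and its starved levels were not called different (-0.19 ± 0.11). Each of these 3 calls was lost without Wt_Unstarved 3, Wt_Arg 1 or Gcn_Arg 2, that of Btg2 also without Gcn_Unstarved 1, and that of Cdkn1a also without Wt_Unstarved 2, Wt_Arg 2, Gcn_Unstarved 2 or Gcn_Unstarved 3. Plk3, a stress-activated kinase, was the lower gene (-0.61). Dusp5, a nuclear phosphatase of ERK and the 1 called of 11 ERK feedback genes, stood at 26.4 to 30.8 CPM in Wt_Unstarved, 28.8 to 29.4 in Wt_Arg, 13.2 to 15.3 in Gcn_Unstarved and 6.41 to 7.45 in Gcn_Arg (interaction -1.04 ± 0.13, adjusted p = 3.3e-05).

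Several lists had no called interaction, against 2.3% of all genes, a share that in lists of these sizes leaves little room for calls. No gene was called among 80 ribosomal protein genes (medians -0.20 in Wt and -0.22 in Gcn) or 29 ribosome biogenesis genes (-0.18 and -0.19). None was among 22 sterol synthesis genes (-0.37 and -0.41), 14 FOXO and growth-restraint genes (0.68 and 0.64) or 21 replication genes (0.24 and 0.18). Lists of 15 heat shock genes (-0.08 and -0.36) and 14 arginine and polyamine genes (-0.18 and -0.23) had none either. The 15 naive pluripotency genes (0.17 and 0.25) and 50 histone genes (0.54 and 0.36) also had none. With the replicate block within genotype, where 1505 of all genes were lower and 1000 higher, 6 heat shock genes were lower and 1 higher. In that fit 8 ribosome biogenesis genes were lower and 2 higher, and 6 sterol synthesis genes lower and 3 higher. Of ribosomal protein genes 5 were lower and 1 higher, and of replication genes 1 and 5. Of 34 lysosome and autophagy genes, 21 rose in Wt and 19 in Gcn, against 17% and 16.5% of all genes, and 1 was lower and 1 higher in the interaction (Atp6v1a and Gabarapl1). The call of Atp6v1a, a proton pump subunit (-0.44), was lost with library size alone as scaling, and without Wt_Unstarved 3, Wt_Arg 2, Wt_Arg 3, Gcn_Unstarved 1, Gcn_Unstarved 2 or Gcn_Arg 2.

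Outside the lists, several named genes were lower. Ifrd1, a transcriptional coregulator, stood at 108 to 133 CPM in Wt_Unstarved, 166 to 183 in Wt_Arg, 130 to 142 in Gcn_Unstarved and 46.4 to 55.5 in Gcn_Arg (interaction -1.93 ± 0.13, adjusted p = 1.58e-09). Tsc22d3, a glucocorticoid-induced leucine zipper gene, rose 4.11-fold in Wt and was not called in Gcn (interaction -2.31 ± 0.21, adjusted p = 3.75e-07). Arl14ep rose in Wt from 49.5 to 60 CPM to 125 to 144 and stood at 55.5 to 67.2 CPM in all 6 Gcn libraries (interaction -1.21 ± 0.11, adjusted p = 4.79e-07). Genes that fell further in Gcn included Rbm10, a splicing regulator (-0.45 in Wt and -1.60 in Gcn), Snhg5, a small nucleolar RNA host gene (-0.54 and -1.54), Katna1, of the microtubule-severing katanin (-0.36 and -1.12), and Lcmt1, which methylates the phosphatase PP2A (-0.33 and -1.27).

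Among the genes whose response was higher in Gcn were Abtb2, Cebpd and Rhob. Abtb2, an ankyrin and BTB domain gene, stood at 4.04 to 4.83 CPM in Wt_Unstarved, 4.9 to 5.32 in Wt_Arg, 3.88 to 4.05 in Gcn_Unstarved and 8.68 to 11 in Gcn_Arg, with the largest interaction of the named genes called higher (1.15 ± 0.18, adjusted p = 0.000833). Rhob, a small GTPase, stood at 30.4 to 36 CPM in Wt_Unstarved and 32.9 to 36.9 in Wt_Arg, at 17.8 to 20 in Gcn_Unstarved and at 34.1 to 40.7 in Gcn_Arg. The starved Gcn libraries thus reached the level of the Wt libraries (interaction 0.92 ± 0.12, adjusted p = 0.000126). Id1, an inhibitor of bHLH factors, fell in Wt (-0.99) and was not called in Gcn (-0.15). Efnb1, which encodes ephrin-B1, rose more in Gcn (0.36 in Wt and 1.14 in Gcn). It began 1.69-fold lower in Gcn, and the starved genotypes did not differ beyond the error (0.03 ± 0.11).

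The 7 genes that fell in Wt and rose in Gcn included Cebpd. Among the others Cdc25a, a phosphatase that activates cyclin-dependent kinases, fell by 0.21 in Wt and rose by 0.47 in Gcn (interaction 0.67 ± 0.10, adjusted p = 0.000452), and Med18, a Mediator subunit, had -0.44 and 0.26, Prx -0.35 and 0.41, and Rassf7 -0.30 and 0.35. Without Wt_Unstarved 3 or Wt_Arg 2, 2 genes were in this class, without Wt_Arg 3, 3, without Wt_Unstarved 1, Gcn_Unstarved 1 or Gcn_Arg 2, 4, and without Gcn_Unstarved 3 or Gcn_Arg 1, 11.

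The same genotype dependence can be read for leucine, from Wt_Leu and Gcn_Leu cells starved of leucine for 3 h, against the same unstarved libraries. For leucine 139 genes (0.821%) were called, 113 lower (0.668%) and 26 higher (0.154%). The 2 interactions share the unstarved libraries and are therefore set side by side only: Chac1 had -4.03 for arginine and -4.15 for leucine, Trib3 -3.32 and -3.15, Ddit3 -2.87 and -2.61, Atf4 -1.02 and -0.91, and Slc7a1 -1.19 and -1.21. The direct test of the difference, in which the unstarved libraries cancel, called 10 genes (0.0591%), 8 lower (0.0473%) and 2 higher (0.0118%) for arginine. At an unadjusted p under 0.05 there were 1003 of 16924. That threshold passes many genes even where nothing differs, so the 1003 are not a count of differing genes.

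Rbm10 gave the clearest difference. It stood at 65.5, 63.3 and 66.5 CPM in Wt_Arg and 31.8, 26.2 and 27.8 in Gcn_Arg, and at 79.2, 83.8 and 86.3 in Wt_Leu and 88.5, 78.8 and 78 in Gcn_Leu. The genotypes were apart under arginine starvation and overlapped under leucine starvation (difference of interactions -1.16 ± 0.11, adjusted p = 6.2e-06). Ccni, encoding cyclin I, had -1.05 for arginine and -0.20 for leucine, Gpt2 -2.10 and -1.29, and Lcmt1 -0.94 and -0.18. Selenoi, a phospholipid synthesis enzyme, the tetraspanin gene Cd9, Arf1, a GTPase of Golgi traffic, and Pdia4 differed by -0.51 to -0.59. Cln8, an ER protein that exports lysosomal enzymes, was lower for leucine (-0.62) and not called for arginine (-0.07), and Gm10131, a predicted gene, had 0.61 for arginine and -0.64 for leucine, neither of them called on its own. Without Wt_Arg 1, Wt_Arg 2, Wt_Arg 3, Gcn_Unstarved 2, Gcn_Arg 2 or Gcn_Arg 3, 1 gene was called in this test, without Wt_Unstarved 1, 6, and without Gcn_Arg 1, 24.

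**Figure D5:**
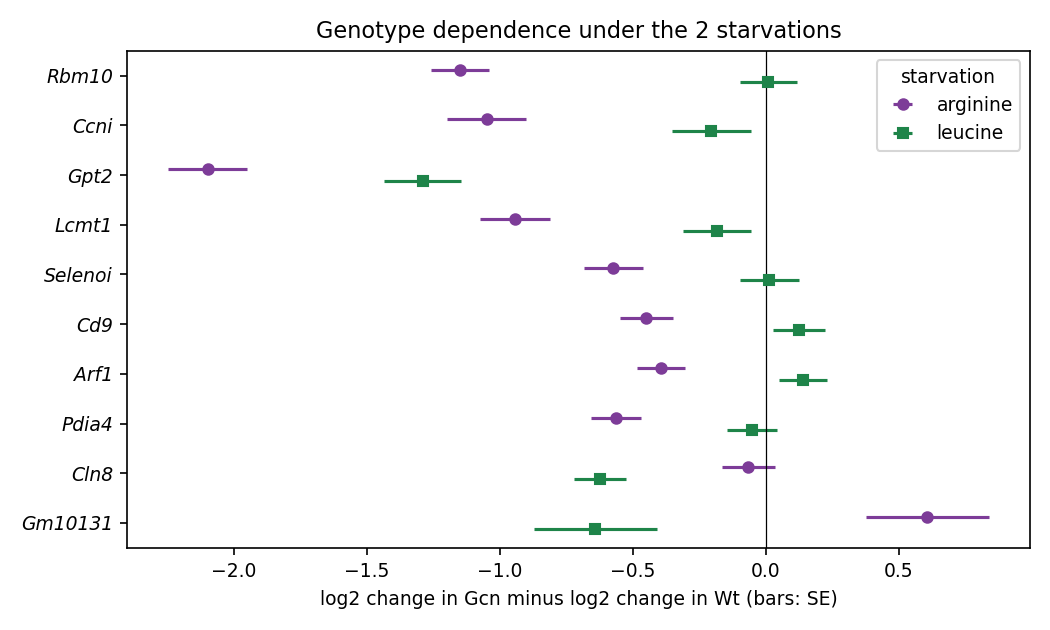
Log2 change in Gcn minus log2 change in Wt, with SE bars, for arginine (circles) and leucine (squares) starvation, of the 10 genes called in the test of the difference between them. Rbm10 lies at -1.15 for arginine and at 0.01 for leucine, and Gpt2 is negative for both.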

How the data were processed

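RNA was measured in 18 libraries, 3 in each of 6 groups. The authors deposited 1 raw count table per genotype (55471 genes each), made per the submitters' processing notes with STAR 2.7.4a and HTSeq on GRCm38; the sources used here name neither the annotation release nor the strand setting. The 2 normalized tables were not used. The tables were joined by Ensembl ID, and 55230 IDs took symbols from GENCODE vM21. All 18 libraries were fitted with 6 group means in edgeR 4.0.16 (R 4.3.3; filterByExpr, trimmed-mean scaling, robust quasi-likelihood F test), which left 16924 genes; p-values were Benjamini-Hochberg adjusted over these and called under 0.05. The SE is the log2 value divided by the root of F. Scripts were tested on simulated data. Members and lists were chosen with earlier results of these data known. Named genes are Eif2ak4, the 12 most negative and 12 most positive called genes of at least 5 CPM, the leading genes of each class, members of the 4 ISR lists, and leading called and abundant uncalled members of the others. One member of the amino acid synthesis list is not reported here. Alternatives were DESeq2 1.42.0, limma-voom (limma 3.58.1), other scaling and filters, a replicate block, and leaving out libraries. Libraries held 14.8 to 32.7 M counts in the 4 groups; the biological coefficient of variation was 0.093 at the median gene.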

Additional observations from a re-analysis of the deposited data

Results flagged for a closer look

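The arginine response differed between genotypes, by the test of the interaction itself without a replicate block, in 285 genes with a lower and 105 with a higher change in Gcn. The dependence on genotype differed between arginine and leucine starvation in 10 genes, by the test of that difference. Their log2 differences (arginine minus leucine) were -1.16 for Rbm10, -0.85 for Ccni, -0.81 for Gpt2, -0.76 for Lcmt1, -0.59 for Selenoi, -0.57 for Cd9, -0.53 for Arf1, -0.51 for Pdia4, 0.56 for Cln8 and 1.25 for Gm10131. Beside Rbm10, with an adjusted p of 6.2e-06 in edgeR, the other 9 had adjusted p-values of 0.031 to 0.048.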

How the results depend on the processing

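Counts are given in the order of genes lower in Gcn, genes higher, genes that rose in Wt and fell in Gcn, genes that fell in Wt and rose in Gcn, and genes that differed between arginine and leucine; they were 285, 105, 47, 7 and 10. With no filter on low counts, 641 were lower, 4 fell in Wt and rose in Gcn, and 61 differed between amino acids. With library size alone the counts were 162 lower, 298 higher, 30 and 27, and the median interaction of all genes moved from -0.0039 to 0.0881. DESeq2's Wald test gave 545 lower, 236 higher and 79 for the amino acid difference. Without the 3 Gcn libraries numbered 1, 184 were higher, 14 fell in Wt and rose in Gcn, and 30 differed between amino acids. The cause of these shifts was not tested. DESeq2 size factors and limma-voom kept these 5 counts within 1.5 times, and so did the fit of the 12 libraries alone for the counts other than the amino acid difference, which it cannot give. Leaving out 1 library at a time gave 142 to 365 lower, 38 to 160 higher, 32 to 56, 2 to 11, and 1 to 24.

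Same-numbered libraries deviated together by a correlation of 0.096 to 0.201 in Wt and of 0.18 to 0.448 in Gcn. Differently numbered libraries had -0.164 to -0.03 in Wt and -0.354 to 0.217 in Gcn. In Wt the pair numbered 2 lay at 0.096, just under the 0.1 set for pairing. Every same-numbered Wt pair lay above every differently numbered one. In Gcn this did not hold, as Gcn_Unstarved 3 correlated better with Gcn_Arg 2 (0.217) than with Gcn_Arg 3 (0.18). The main fit carries no block, and the number of calls depended strongly on that choice. With a replicate block within genotype the counts were 1505, 1000, 161, 60 and 429, with 389 of the 390 genes shared. A replicate block shared by genotypes gave 160 higher and 17 for the amino acid difference. The block with a GC correction gave 1459, 941, 141, 55 and 623. Of the 19 eIF2α kinases and partners, 2 were called lower without a block, 8 with the block within genotype and 9 with the GC correction added. Asns was called in the 3 blocked fits and with no filter, and its adjusted p ran from 0.000251 to 0.263 over the 22 alternatives.

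Of 97 named genes called, 72 were called under all 22 alternatives and 24 lost the call under at least 1. Slc7a11, the 1 left, had no adjusted p in DESeq2's Wald test and was called under the other 21. None changed sign with a call. Precision is limited by 3 libraries per group, which may be technical repeats, and by genes of few counts in Gcn_Arg such as Inhbe.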
